A study of Mus musculus with 21 samples.

Results

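Imprinted genes that lie outside the Dlk1-Dio3 and Peg3 domains were followed across 7 groups of mouse embryonic stem cells. The members were chosen by symbol: H19, Igf2, Peg10, Sgce, Mest, Snrpn, Impact, Plagl1, Grb10 and Nnat. All 10 were found among the 31053 gene IDs of the count tables, and 7 of them passed the filter on low counts, as did 10643 genes in all. H19, Igf2 and Sgce did not pass and were described without a test. The cells were E14Tg2a, a male line derived from a 129 mouse strain, in which 1 allele of Rex1 carries GFPd2, a short-lived fluorescent reporter; all groups shared this modification. The 21 mRNA libraries fell into 7 groups of 3 replicates, labelled 2i+LIF PO, 2i+LIF LP, CH+LIF LP, LIF LP, 2i+LIF HP, CH+LIF HP and LIF HP. LIF, leukaemia inhibitory factor, signals through STAT3. CHIR99021 (CH) blocks the kinase GSK3 and PD0325901 (PD) blocks MEK, and the name 2i usually means both inhibitors. The series was described as sampled without passage and after 1 and 2 months of culture; PO was read as the unpassaged group, and LP and HP were compared as named because the labels do not say which was the longer culture. One growth protocol text covered every library, with basal NDiff227 medium and CH, PD and LIF given and withdrawn in turn, so the medium was known from the group label alone.

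An imprinted gene is transcribed mainly from the copy inherited from either the mother or the father. The difference is set by DNA methylation laid down in the germ line at imprinting control regions, and it is kept through the methylation loss of the early embryo by ZFP57, which binds the methylated hexamer TGCCGC, together with TRIM28. Cultured embryonic stem cells are known to lose or gain such methylation, and several of these genes act on growth. Counts per gene do not separate the parental copies, so only the summed level of both was measured here.

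The promoters of the 4 members whose level differed among the groups are shown and were searched for the ZFP57 hexamer. Whether a window lies in an imprinting control region was not examined. For each gene the RefSeq window with the most CpG was taken, 250 bases upstream of an annotated start (GRCm38.p6, written 5′ to 3′ on the gene's strand). Capitals mark GCGGCA, the reverse complement of TGCCGC; both orientations were searched.
Plagl1, chr10:13090582-13090831, plus strand: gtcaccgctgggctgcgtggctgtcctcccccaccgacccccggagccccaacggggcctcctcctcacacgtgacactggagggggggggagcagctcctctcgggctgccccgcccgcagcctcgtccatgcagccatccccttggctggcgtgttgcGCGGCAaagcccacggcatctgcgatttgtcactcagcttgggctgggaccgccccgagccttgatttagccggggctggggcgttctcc
Mest, chr6:30737800-30738049, plus strand: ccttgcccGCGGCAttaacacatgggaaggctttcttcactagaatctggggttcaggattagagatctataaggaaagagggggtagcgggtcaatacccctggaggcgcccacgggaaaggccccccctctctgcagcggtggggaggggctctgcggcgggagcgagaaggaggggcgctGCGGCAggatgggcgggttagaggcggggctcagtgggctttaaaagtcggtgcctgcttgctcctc
Grb10, chr11:12037421-12037670, minus strand: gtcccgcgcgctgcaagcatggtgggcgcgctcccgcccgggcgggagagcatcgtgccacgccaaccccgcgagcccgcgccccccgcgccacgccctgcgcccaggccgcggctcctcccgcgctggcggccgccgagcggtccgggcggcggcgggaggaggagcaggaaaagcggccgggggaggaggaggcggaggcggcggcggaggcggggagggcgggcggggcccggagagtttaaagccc
Nnat, chr2:157559828-157560077, plus strand: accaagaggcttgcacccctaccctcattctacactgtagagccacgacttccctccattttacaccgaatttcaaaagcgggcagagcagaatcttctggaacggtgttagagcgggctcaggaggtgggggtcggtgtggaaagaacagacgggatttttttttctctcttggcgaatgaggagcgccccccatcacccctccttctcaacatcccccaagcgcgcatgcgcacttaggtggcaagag
The Mest window held the hexamer 2 times and the Plagl1 window 1 time, while those of Grb10 and Nnat did not hold these letters. Of all 32851 windows of the same length, 8.7% held at least 1 copy on either strand. The windows contained 19 CpG for Plagl1, 14 for Mest, 40 for Grb10 and 12 for Nnat. The CpG counts are not set against other genes, and the 8.7% is no like comparison for the 4 windows shown. Each of these was picked for its CpG, a choice that also bears on the hexamer, which holds a CpG. Of the other members, the RefSeq table matched Snrpn and Igf2. These matches describe the letters only; binding and methylation were not measured.

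Gene counts per library ran from 1132126 to 3783043, with a median of 1763531. Values below are CPM, the count of a gene per 1000000 counts of its library after TMM scaling. A count of 0 was read as allowing up to 3 counts, which equal 0.748 to 3.09 CPM depending on the library. In 2i+LIF PO replicate 1, 39.1% of gene counts were mitochondrial. In 2i+LIF LP replicate 1, 31.7% came from Gm42418, a locus overlapping ribosomal RNA. Both libraries stood apart from the remaining 19 in their mean correlation with the replicates of their own group. This was 0.830 for the PO library and 0.787 for the LP library, against 0.857 to 0.944 in the remaining 19. The names of the deposited tables place the PO libraries under another run code than the remaining 18, and the run cannot be told apart from PO. Targets of the named pathways went against some labels. The libraries labelled LIF HP, a label that names no MEK inhibitor, had 0.411 ± 0.711 CPM (SD, n = 3, as for every mean below) of Dusp6, a target of MEK-ERK signalling. Replicates 1, 2 and 3 of 2i+LIF LP had 0.701, 34.4 and 26.3 CPM of it, and it averaged 2.85 CPM in 2i+LIF PO. Sp5, a target of the Wnt pathway that CH activates, had 1.03 ± 0.460 CPM in the libraries labelled CH+LIF LP, near the 0.367 ± 0.636 CPM of LIF LP. It had 24.5 ± 5.34 CPM in those labelled LIF HP, which names no CH, and 32.5 ± 14.6 CPM in CH+LIF HP. Axin2, another Wnt target, had 5.16 ± 5.32 CPM in CH+LIF LP, 5.53 ± 0.876 CPM in CH+LIF HP and 9.06 ± 3.12 CPM in LIF HP, against 0.763 ± 0.686 CPM in LIF LP. Groups are therefore called by their labels, and nothing is inferred from the expected composition of a medium. For the members, fits without 2i+LIF LP replicates 2 and 3, without LIF HP and without CH+LIF LP were added. A contrast with LIF HP or CH+LIF LP has no value without that group, and values of genes outside the members are given as labelled, with no such alternative. All 12 pluripotency markers examined had counts in every group, and some of them moved with the contrasts against 2i+LIF PO. Their sums were 4215 to 5205 CPM per library in PO, 1624 to 2475 CPM in 2i+LIF HP and 2560 to 3860.4 CPM in the other 5 groups. Called lower than in PO were 3 of the 12 in 2i+LIF LP, 5 in CH+LIF LP, 5 in LIF LP, 8 in 2i+LIF HP, 2 in CH+LIF HP and 4 in LIF HP, among them Nanog, Zfp42 and Dppa5a in the first 4 of these groups, and 1, Pou5f1, was higher in LIF HP. All genes called in these contrasts, in either direction, made up 5.06, 8.31, 12, 10.6, 5.82 and 12.3%, in the same order. The part of this shift in the members' differences from PO was not tested. In pooled cells, fewer expressing cells and less RNA per cell cannot be told apart. No label says that replicates were separate cultures, so p-values measure the spread between these samples, which may be technical.

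Across the 7 groups, Plagl1, Mest, Nnat and Grb10 differed and Peg10, Snrpn and Impact did not pass the test. That is 4 of the 7 tested members in edgeR's joint test at an adjusted p under 0.05, beside 22.6% of all tested genes, where edgeR's quasi-likelihood model was fitted to all libraries and p adjusted over all tested genes. The edgeR adjusted p-values were 2.05e-05 for Plagl1, 0.000476 for Mest, 0.00256 for Nnat and 0.0103 for Grb10. For Peg10, Impact and Snrpn they were 0.275, 0.451 and 0.945. The members' median log2 difference was 0.10 to 1.31 in the 6 contrasts against 2i+LIF PO, beside -0.10 to -0.05 over all genes, and -0.45 beside 0.01 in LIF HP against LIF LP. Since the filter kept members through the groups where they were high, these medians describe the 7 genes and support nothing further. Pairwise, 16 differences passed among the 15 contrasts, 14 of them higher and 2 lower in the first-named group, and 13 of the 16 were against 2i+LIF PO, whose 3 libraries all 6 of those contrasts share.

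**Figure D1:**
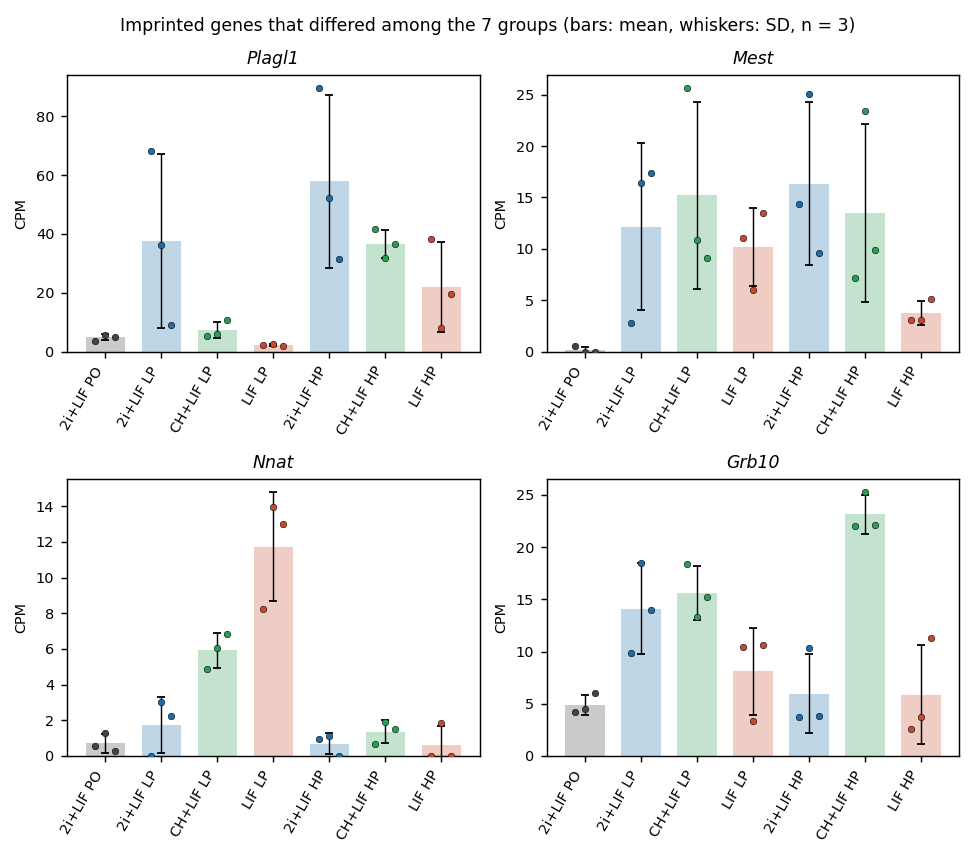
Plot of CPM (vertical axis, linear) in each of the 7 groups for Plagl1, Mest, Nnat and Grb10; points are libraries, bars are means and whiskers are SD (n = 3), cut at 0. Plagl1 is low in 2i+LIF PO, CH+LIF LP and LIF LP, Mest is near 0 in 2i+LIF PO alone, Nnat is highest in LIF LP, and Grb10 is highest in CH+LIF HP.

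Plagl1 encodes a zinc finger transcription factor that can halt the cell cycle and is expressed from the paternal copy (chromosome 10, 13060504 to 13131694; all gene positions refer to GRCm38). The 3 replicates of 2i+LIF HP had 89.7, 52.3 and 31.6 CPM, and those of 2i+LIF LP 68.0, 36.2 and 8.95 CPM. CH+LIF HP had 41.5, 32.0 and 36.6 CPM, and the libraries labelled LIF HP had 38.1, 8.01 and 19.6 CPM. These 4 groups overlap one another. The remaining groups had lower means: CH+LIF LP, whose highest library lay above the lowest of LIF HP and 2i+LIF LP, had 5.33, 6.05 and 10.6 CPM, 2i+LIF PO 3.69, 5.75 and 4.99 CPM, and LIF LP 2.20, 2.66 and 1.92 CPM. Every LIF LP library lay below every library of the other 6 groups, on 4 counts in each.

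Among media at LP, Plagl1 was the only member called, lower in LIF LP (2.26 ± 0.369 CPM) than in 2i+LIF LP (37.7 ± 29.6 CPM; log2 difference -4.03, SE 0.67, adjusted p 0.0020 in edgeR). Over all genes 0.498% were called in any contrast of media at LP: 0.489% in this one, 0.047% in LIF LP against CH+LIF LP and 0% for the CH+LIF and 2i+LIF pair. The difference was -4.92 with 2i+LIF LP replicates 2 and 3 left out, which leaves 1 library whose spread is assumed to match the other groups, and -3.31 with replicate 1 left out (edgeR adjusted p 3.88e-05 and 0.0134). In a fit of these 2 groups alone it did not pass (edgeR adjusted p 0.164). CH+LIF LP against 2i+LIF LP gave -2.37 (SE 0.59, edgeR adjusted p 0.293), with overlapping libraries.

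Plagl1 was higher in the libraries labelled LIF HP than in those labelled LIF LP. In LIF HP it averaged 21.9 ± 15.2 CPM against 2.26 ± 0.369 CPM in LIF LP (log2 difference 3.27, SE 0.67, adjusted p 0.0034 in edgeR), with no overlap. HP against LP called 2 of the 7 tested members in any medium, beside 12.3% of all genes, and both calls were in LIF, where 9.96% of genes were called (3.67% in 2i+LIF). This one passed in all 32 alternative fits that gave it, falling to 2.51 without LIF HP replicate 1. No value exists without the libraries labelled LIF HP. CH+LIF HP was above CH+LIF LP in every library (36.7 ± 4.78 against 7.34 ± 2.88 CPM; log2 fold change 2.34, SE 0.59), at an edgeR adjusted p of 0.273 in a contrast that called 0.0094% of genes. In 2i+LIF the change was 0.64 (SE 0.52, edgeR adjusted p 0.577), and the difference between the LIF and 2i+LIF changes was 2.63 (SE 0.85, edgeR adjusted p 0.212). No member passed in any interaction of medium with HP against LP, where 0.517% of all genes did; 2 members had an unadjusted p under 0.05 in edgeR, and DESeq2 called 0. Without 2i+LIF LP replicates 2 and 3 the interaction count was 2, Plagl1 and Mest.

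Against 2i+LIF PO, Plagl1 was called higher in 4 groups. The log2 fold changes were 2.92 in 2i+LIF LP (SE 0.58, edgeR adjusted p 0.0053), 3.56 in 2i+LIF HP (SE 0.59, 0.000334), 2.89 in CH+LIF HP (SE 0.58, 0.0051) and 2.16 in LIF HP (SE 0.58, 0.0168). All genes called in these contrasts made up 5.06, 10.6, 5.82 and 12.3%. The LIF HP call was lost without LIF HP replicate 1 (1.41, edgeR adjusted p 0.155), without 2i+LIF PO replicate 1 (2.01, 0.0622) and with thinned counts (1.93, 0.0537). The 2i+LIF LP call was lost in a fit of its 2 groups alone (edgeR adjusted p 0.242); it was 3.81 without 2i+LIF LP replicates 2 and 3 and 2.21 without replicate 1. Of the other genes, Nefm and Ccdc13 had the Plagl1 pattern most alike over the 21 libraries (Pearson's r of log2 CPM 0.85 and 0.81 among 10516 genes). Nefm encodes a neurofilament subunit.

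Mest, also called Peg1, encodes a paternally expressed protein of the hydrolase family named for its expression in mesoderm (chromosome 6, 30723547 to 30748465, overlapping Copg2 on the opposite strand). It was nearly absent from 2i+LIF PO, with 1 count in replicate 1 (0.528 CPM) and none in replicates 2 and 3, where 3 counts would equal 0.748 to 1.58 CPM across the group. Every library of the other 6 groups had more. At LP, 2i+LIF had 2.81, 16.4 and 17.3 CPM, CH+LIF 25.7, 10.9 and 9.11 CPM, and LIF 11.0, 5.98 and 13.5 CPM. At HP, 2i+LIF had 14.4, 25.1 and 9.58 CPM and CH+LIF 7.14, 23.4 and 9.90 CPM. The libraries labelled LIF HP had 3.09, 3.08 and 5.15 CPM, below every library of LIF LP, 2i+LIF HP and CH+LIF HP.

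Mest was called higher than 2i+LIF PO in all 6 groups, a pattern shared by 56 genes, 0.526% of those tested. The edgeR adjusted p-values ran from 0.000101 in 2i+LIF HP to 0.0105 in LIF HP. Because PO had 1 count, the size was taken from pooled counts: 87 counts in 2i+LIF HP made it 189 times higher (95% interval of counting error 33.0 to 7539.7), and 16 counts in LIF HP made it 29.8 times higher (4.63 to 1249). The remaining 4 groups lay between, from 122 times in LIF LP (21.1 to 4912) to 177 times in CH+LIF LP (30.9 to 7073). These ratios use library totals without TMM. With TMM-scaled mean CPM they were smaller, 93.0 times in 2i+LIF HP, 21.5 times in LIF HP, and 57.7 to 86.6 times in the remaining 4 groups. All 6 calls held in every alternative fit that gave them. Leaving out PO replicate 1, which held the only count, raised each fitted log2 fold change by more than 1 unit, from 6.17 to 7.59 in 2i+LIF LP for example; without 2i+LIF LP replicates 2 and 3 that value was 4.08 (edgeR adjusted p 0.0408). In 2 contrasts a cultured library moved the value by over 1.5 times on the linear scale: CH+LIF LP replicate 1 (5.87 in place of 6.48) and CH+LIF HP replicate 2 (5.62 in place of 6.31).

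Neighbouring groups in the order of Mest means, from 16.4 CPM in 2i+LIF HP to 10.2 CPM in LIF LP, overlapped, whereas LIF HP (3.77 ± 1.19 CPM) stood apart from both its neighbours. LIF HP against 2i+LIF HP gave -2.17 (SE 0.70, edgeR adjusted p 0.0796), against CH+LIF HP -1.89 (SE 0.70, 0.189) and against LIF LP -1.48 (SE 0.71, 0.182), none of them called. Fibroblasts also express this gene, and of their markers Vim alone moved with the contrasts against PO. Summed levels of the 14 fibroblast markers were 312 to 456 CPM per library in 2i+LIF PO. They were higher in every library of CH+LIF LP (616 to 1151 CPM), LIF LP (562 to 625 CPM) and CH+LIF HP (470 to 774 CPM). The sums of 2i+LIF LP (434 to 891 CPM), 2i+LIF HP (313 to 526 CPM) and LIF HP (328 to 363 CPM) overlapped those of PO. Of 5 markers tested, Vim was called higher than PO in all 6 groups and no other was called. The median log2 difference of the 5 was -0.72 to -0.30 in 5 of these contrasts and 0.19 in LIF LP. Among the 14, Fn1 had 10134 counts over the 21 libraries, Col5a1 341, Col1a1 296 and Thy1 279, whereas Col3a1 had 2 and Dcn and Postn 1 each. Sums of the 8 mesoderm markers were 23.7 to 25.9 CPM in PO, 24.0 to 61.1 CPM in 2i+LIF HP and 5.98 to 35.1 CPM in the other groups. Of the 3 tested, T (brachyury) was called higher than PO in 2i+LIF HP, where it had 22.4 ± 12.4 CPM against 0 counts (edgeR adjusted p 0.00083), and none was called in the other 5 contrasts against PO. The part of such cells in the Mest difference was not tested. Slc1a4 and Il17d were the genes most like Mest (Pearson's r 0.87 and 0.86 over 21 libraries), and Copg2, the neighbour in its domain, had an r of 0.04.

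Nnat encodes neuronatin, a small membrane protein of neurons and endocrine cells expressed from the paternal copy (chromosome 2, 157560078 to 157562522, overlapping Blcap on the opposite strand). Its counts were low, 124 over 21 libraries. LIF LP was highest with 8.26, 13.9 and 13.0 CPM, followed by CH+LIF LP with 4.84, 6.05 and 6.83 CPM and 2i+LIF LP with 0, 3.01 and 2.24 CPM. These 3 groups did not overlap. The other 4 groups overlapped one another, with 0.528, 1.31 and 0.249 CPM for 2i+LIF PO, 0.930, 1.09 and 0 CPM for 2i+LIF HP, 0.649, 1.91 and 1.52 CPM for CH+LIF HP, and 0, 1.85 and 0 CPM for LIF HP.

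Nnat fell from 11.7 ± 3.04 CPM in LIF LP to 0.616 ± 1.07 CPM in LIF HP (adjusted p 0.0123 in edgeR). The pooled counts were 63 and 3, a ratio of 24.2 with a 95% interval of counting error of 7.91 to 120.5. The call was lost without LIF HP replicate 1 (log2 fold change -3.40, edgeR adjusted p 0.0626) and without replicate 3 (-3.68, 0.0695). Without replicate 2, which held all 3 counts, the fitted value was -7.52. Without all libraries labelled LIF HP there is no value. Among media at LP, LIF LP against 2i+LIF LP gave 2.61 (SE 0.85, edgeR adjusted p 0.184); it passed in the fits of thinned counts and without 2i+LIF LP replicates 2 and 3. CH+LIF HP against CH+LIF LP gave -2.03 (SE 0.91, edgeR adjusted p 0.889).

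Against 2i+LIF PO, Nnat was called higher in LIF LP (log2 difference 3.92, SE 0.90, adjusted p 0.0055 in edgeR) and in CH+LIF LP (2.93, SE 0.91, 0.0436), in contrasts that called 12 and 8.31% of genes. The LIF LP call held in all 33 alternatives, at log2 differences of 3.50 to 4.82, the highest without 2i+LIF PO replicate 2; that omission also raised the CH+LIF LP value to 3.81. The CH+LIF LP call was lost in 20 of 32, with edgeR adjusted p-values up to 0.160; leaving out any library of PO, CH+LIF LP or LIF LP ended it. Neural markers followed Nnat in some groups and not in others. The sum of the 10 markers was 221 to 236 CPM per library in LIF LP, 53.8 to 79.2 CPM in PO, 140 to 144.7 CPM in CH+LIF LP, and 96.7 to 149.96 CPM in LIF HP, above CH+LIF LP in 1 library. In 2i+LIF HP, where Nnat averaged 0.673 CPM, it was 49.8 to 166 CPM. In CH+LIF HP, where Nnat averaged 1.36 CPM, it was 63.4 to 70.8 CPM. In 2i+LIF LP, where Nnat averaged 1.75 ± 1.56 CPM and was not called against PO, the sum was 120 to 261 CPM, and Pax6 and Tubb3 were called higher than in PO. Sox1, a transcription factor of neural precursors, was lower in LIF HP (6.66 ± 2.28 CPM) than in LIF LP (48.7 ± 7.99 CPM). The log2 difference was -2.82 (SE 0.73, adjusted p 0.0154 in edgeR). Of the 6 neural markers tested, Sox1 alone was called in that contrast, Pax6, Sox1 and Tubb3 were higher in LIF LP than in PO, and none was called in CH+LIF LP against PO. Their part in the Nnat difference was not tested. Calca and Napsa had the pattern most like Nnat (Pearson's r 0.89 and 0.88 over 21 libraries), and Blcap an r of 0.10.

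Grb10 encodes an adaptor protein that binds insulin and insulin-like growth factor receptors and restrains their signalling. It is expressed from the maternal copy in most tissues (chromosome 11, 11930508 to 12038683). CH+LIF HP was highest, with 22.1, 25.3 and 22.1 CPM, above every other library. CH+LIF LP had 18.4, 13.3 and 15.2 CPM and 2i+LIF LP 9.82, 18.5 and 14.0 CPM, which overlap. LIF LP (10.5, 3.32 and 10.6 CPM), 2i+LIF HP (3.72, 10.4 and 3.83 CPM), LIF HP (2.58, 3.70 and 11.3 CPM) and 2i+LIF PO (4.22, 4.44 and 5.98 CPM) had lower means and overlapped one another, and all of these but PO had libraries above the lowest of 2i+LIF LP.

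The only Grb10 call was CH+LIF HP against 2i+LIF PO, 23.1 ± 1.85 against 4.88 ± 0.959 CPM (log2 difference 2.22, SE 0.53, adjusted p 0.0149 in edgeR). It was lost without PO replicate 2 (2.14, edgeR adjusted p 0.0524) and without CH+LIF HP replicate 2 (2.15, 0.0612). CH+LIF HP against 2i+LIF HP gave 1.92 (SE 0.55, edgeR adjusted p 0.0728), and LIF HP against CH+LIF HP -2.09 (SE 0.57, 0.0607). Among media at HP, edgeR called 0 of the 7 members, beside 5.52% of all genes (2.02% in CH+LIF against 2i+LIF, 1.47% in LIF against CH+LIF, 3.78% in LIF against 2i+LIF); 4 members had an unadjusted p under 0.05 there, and DESeq2 called 2, Grb10 and Mest. Against 2i+LIF PO as a whole, 4 of the 7 members were called in at least 1 contrast, beside 28% of all genes. Trh and Ddx58 were most like Grb10 (Pearson's r 0.81 and 0.74 over 21 libraries). These likeness values describe libraries that share groups, depth and run, and carry no test.

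**Figure D2:**
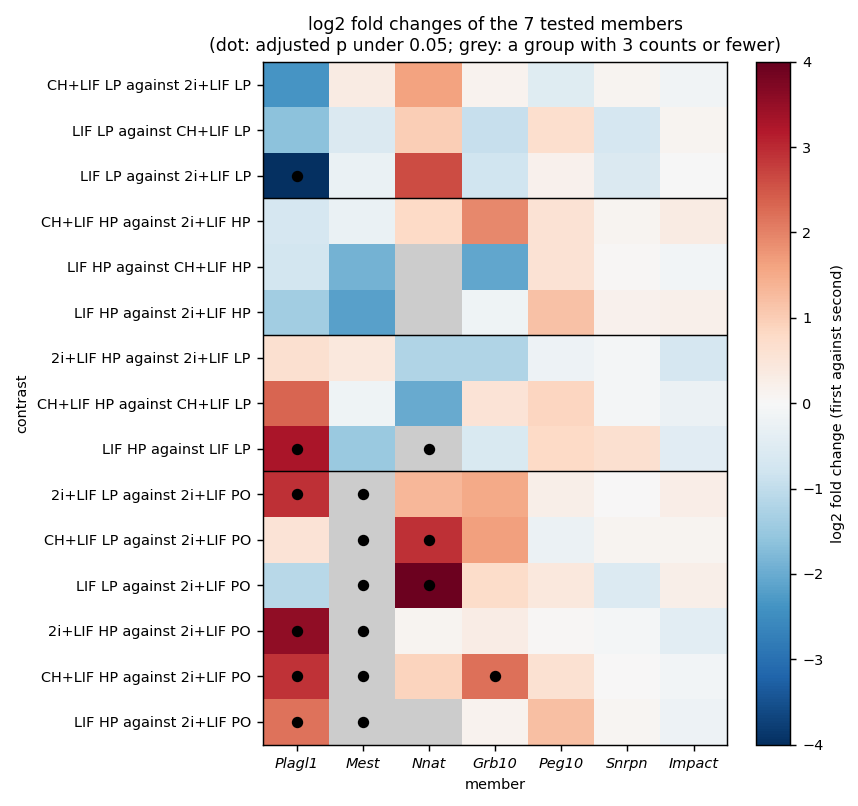
Heat map of edgeR log2 fold changes (colour, first-named against second-named group) of the 7 tested members (columns) in the 15 contrasts (rows); dots mark an adjusted p under 0.05, and grey cells are contrasts in which a group had 3 counts or fewer, whose fitted values are no estimate of size. Peg10, Snrpn and Impact have no dot, and 13 of the 16 dots lie in the lower block, against 2i+LIF PO.

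H19 and Igf2, which share an imprinting control region, were close to undetectable. H19 is a maternally expressed noncoding RNA (chromosome 7, 142575529 to 142578143) and Igf2 a paternally expressed growth factor (chromosome 7, 142650766 to 142666816). Igf2 had 2 counts in all, both in 2i+LIF PO replicate 1. H19 had 56 counts in 11 of 21 libraries and none in the 3 PO libraries. Replicates disagreed: the counts were 0, 14 and 2 in 2i+LIF LP, 0, 0 and 3 in CH+LIF LP, 0, 0 and 5 in LIF LP, and 8, 4 and 0 in 2i+LIF HP. CH+LIF HP had 8, 4 and 1, and LIF HP 6, 1 and 0. Only CH+LIF HP had a count in every library. Against 3 counts over the PO group, the pooled level was at least 9.75-fold higher in 2i+LIF LP, at least 9.11-fold in CH+LIF HP at least 8.68-fold in 2i+LIF HP, at least 4.34-fold in LIF HP and at least 3.57-fold in LIF LP, limits that cover counting error only. In 2i+LIF LP, 14 of the 16 counts came from replicate 2. All 5 counts of LIF LP came from replicate 3, and 6 of the 7 of LIF HP from replicate 1. With no filter, an alternative in which H19 is tested, its joint edgeR adjusted p was 0.150, and 3 groups passed against PO: 2i+LIF LP, 2i+LIF HP and CH+LIF HP (edgeR adjusted p 0.0360, 0.0346 and 0.0324).

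In the insulin-like growth factor list, to which Igf2 and Grb10 are linked by function, 9 of 17 genes were tested. Against 2i+LIF PO none was called higher, and 0 to 3 were called lower per contrast. The 3 in LIF HP included Igf1r, the receptor that Igf2 signals through (6.83 ± 1.14 against 48.8 ± 27.8 CPM; log2 difference -2.82, SE 0.46, adjusted p 0.000487 in edgeR). All genes called in this contrast made up 12.3%, and the list's median was -1.02 beside -0.10 over all genes. Igf1r was also lower than PO in CH+LIF LP and LIF LP (edgeR adjusted p 0.0209 and 0.0307). LIF LP, CH+LIF HP and 2i+LIF HP had more Igf1r than LIF HP (edgeR adjusted p 0.0466, 0.0488 and 0.0188). Igf2r, itself imprinted and a receptor that removes Igf2, had 25.1 ± 7.00 CPM in LIF HP against 69.5 ± 18.9 CPM in 2i+LIF HP (edgeR adjusted p 0.0166). Igfbp2, a binding protein of these growth factors, had 6.78 ± 3.43 CPM in 2i+LIF HP. CH+LIF HP was higher at 51.1 ± 16.3 CPM (edgeR adjusted p 0.0067), and so was LIF HP at 79.9 ± 17.7 CPM (0.0010).

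Peg10 and Sgce lie next to each other on chromosome 6 (4747306 to 4760517 and 4674350 to 4747207) and are both paternally expressed. Peg10 derives from a retrotransposon and is needed for the placenta, and Sgce encodes epsilon-sarcoglycan, a membrane protein. Peg10 ranged from 4.21 to 40.2 CPM over the 21 libraries, and all neighbouring groups in the order of means overlapped. Libraries labelled LIF HP had 40.2, 12.3 and 37.1 CPM against 7.91, 20.9 and 9.22 CPM in 2i+LIF PO (log2 difference 1.21, SE 0.52, adjusted p 0.128 in edgeR). Without 2i+LIF LP replicates 2 and 3, Peg10 passed the joint test and the count of members was 5. Sgce had 76 counts in all: 0, 4.71 and 4.24 CPM in PO, 0, 7.63 and 1.52 CPM in CH+LIF HP, and 2.06, 5.54 and 2.06 CPM in LIF HP. Its pooled counts were 1, 1 and 3 in 2i+LIF LP, CH+LIF LP and LIF LP and 3 in 2i+LIF HP, against 35 in PO. The pooled level was 19.2 times lower in 2i+LIF LP than in PO (95% interval of counting error 3.22 to 778), with 1 PO library at 0. It was 16.4 times lower in CH+LIF LP (2.76 to 667), 5.44 times in LIF LP (1.71 to 27.6) and 5.38 times in 2i+LIF HP (1.70 to 27.3). With no filter, an alternative in which Sgce is tested, none of these differences from PO passed. The edgeR adjusted p-values were 0.144 in 2i+LIF LP, 0.155 in CH+LIF LP, 0.307 in LIF LP and 0.351 in 2i+LIF HP. In CH+LIF HP 16 of 18 counts came from replicate 2, and the joint edgeR adjusted p with no filter was 0.0530. The sums of 12 trophoblast markers, from a lineage in which Peg10 acts, were 141.2 to 195.3 CPM per library in LIF HP, 37.2 to 79.9 CPM in LIF LP and at least 140.9 CPM in PO. In 2i+LIF HP, where Peg10 averaged 13.0 ± 4.41 CPM, they were 134 to 189.7 CPM, and Krt7 and Cdx2 were called higher than in PO. Of the 6 tested, Tfap2c, a transcription factor also found in stem cells, was called higher in LIF HP (142.1 ± 17.8 CPM) than in LIF LP (43.6 ± 14.9 CPM). None was called in LIF HP against PO. Tfap2c alone thus held most of the LIF HP sum, and Ascl2, another of the 12, had 0 counts in that group. The part of these markers in the Peg10 level was not tested. Rabepk and Cdadc1 were most like Peg10 (Pearson's r 0.80 and 0.79).

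Snrpn and Impact were counted in all 21 libraries and passed no test. Snrpn encodes a protein of small nuclear ribonucleoproteins from the imprinted region linked to Prader-Willi syndrome (chromosome 7, 59982495 to 60140219, where it overlaps Snurf). It ranged from 14.5 to 83.1 CPM, and replicates were far apart, with 17.5, 83.1 and 19.6 CPM in 2i+LIF LP and 14.5, 41.2 and 78.2 CPM in CH+LIF LP. LIF HP had the smallest spread at 41.2, 45.0 and 43.3 CPM, above every LIF LP library (22.0, 19.9 and 39.9 CPM; edgeR adjusted p 0.512). Its log2 fold changes over the 15 contrasts lay between -0.69 and 0.65, with SE of 0.56 to 0.58. Snurf, whose reading frame is carried on the same transcripts, had 0 counts in all libraries, and reads of the overlapping genes cannot be told apart. Cbx3 and Got2 were most like Snrpn (Pearson's r 0.89 and 0.85).

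Impact encodes an inhibitor of GCN2, the kinase that responds to amino acid shortage (chromosome 18, 12955852 to 12992950). It ranged from 93.9 to 205.8 CPM, and all neighbouring groups overlapped. The extremes of the order were 2i+LIF LP (143.8 to 205.8 CPM) and 2i+LIF HP (93.9 to 118.5 CPM), which did not overlap. That contrast gave a log2 fold change of -0.68 (SE 0.31, edgeR adjusted p 0.265). Hnrnpa3 and Chuk were most like Impact (Pearson's r 0.75 for both).

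**Figure D3:**
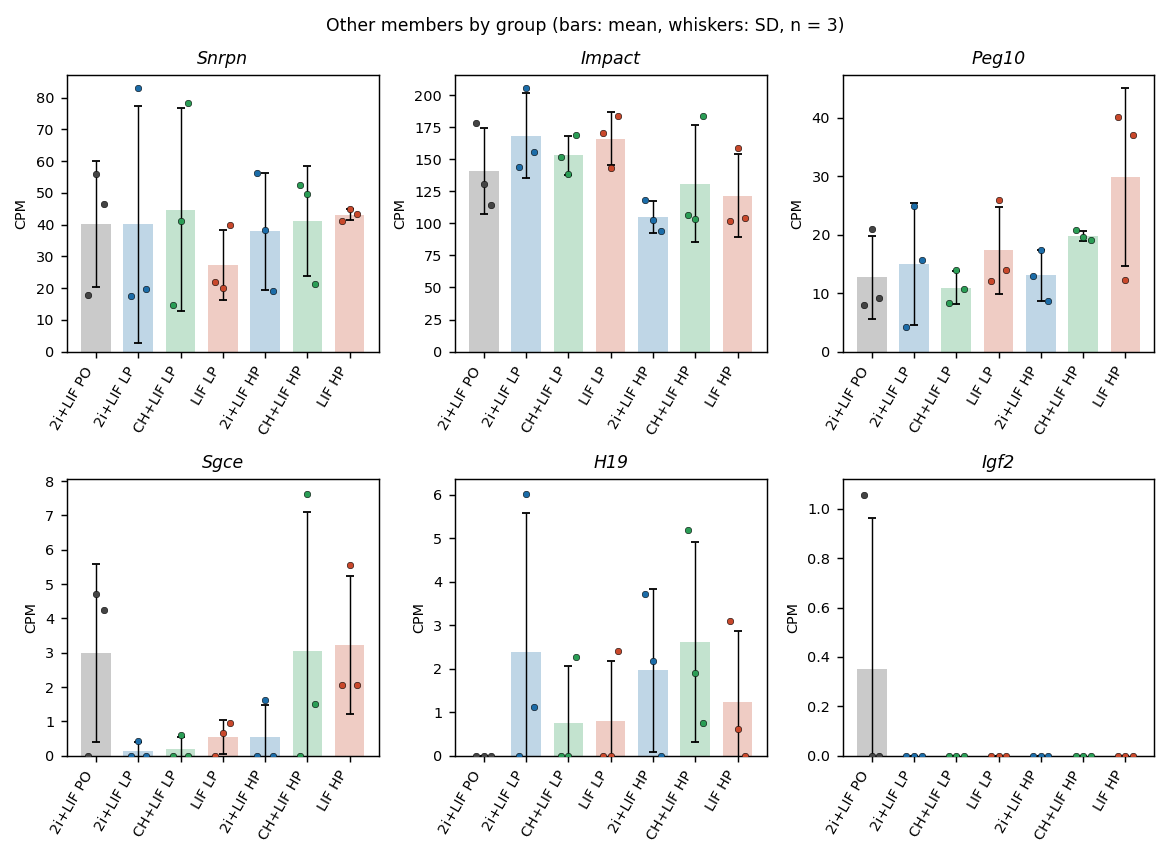
Plot of CPM (vertical axes, linear, scaled per gene) in each group for Snrpn, Impact, Peg10, Sgce, H19 and Igf2; points are libraries, bars means and whiskers SD (n = 3), cut at 0. Snrpn and Impact overlap between neighbouring groups, H19 is at 0 in 2i+LIF PO, and Igf2 has a count only in 1 PO library.

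Other imprinted genes from a list of 43, of which 29 were tested, had at most 8 calls in a contrast. Among media at LP edgeR called 0 of the 29, beside 0.498% of all genes, 9 had an unadjusted p under 0.05 and DESeq2 called 1, with list medians of -0.06, 0.31 and 0.23 beside 0.05, -0.03 and 0.02 over all genes. In LIF HP against LIF LP, 0 rose and 3 fell: Zdbf2, a paternally expressed zinc finger gene (65.4 ± 8.36 against 351 ± 24.5 CPM; log2 difference -2.42, SE 0.44, adjusted p 0.0013 in edgeR), Ppp1r9a, a neuronal actin-binding protein (-2.64, SE 0.62, 0.0092), and Ube3a, a ubiquitin ligase (-1.65, SE 0.44, 0.0174). These 3 of 29 stand beside 9.96% of all genes, a share near that of the list, whose median was 0.06 beside 0.01 over all genes. Among media at HP edgeR called 6 of the 29 in any contrast, beside 5.52% of all genes, and DESeq2 called 8. The edgeR count was 3 in CH+LIF against 2i+LIF (2.02% of all genes), 4 in LIF against 2i+LIF (3.78%) and 2 in LIF against CH+LIF (1.47%). Zdbf2 and Gnas, the gene of the stimulatory G protein, stood at 46.1 ± 9.59 and 68.8 ± 7.40 CPM in 2i+LIF HP. They were higher, at 214 ± 27.3 and 169 ± 33.3 CPM, under CH+LIF (edgeR adjusted p 0.0049 and 0.0136). Slc38a4, an amino acid transporter, was lower there, with 15.1 ± 4.49 against 97.2 ± 45.4 CPM (edgeR adjusted p 0.0049).

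Against 2i+LIF PO, 1 of the 29 was called in 2i+LIF LP, 3 in CH+LIF LP, 6 in LIF LP, 3 in 2i+LIF HP, 3 in CH+LIF HP and 8 in LIF HP. The shares of all genes were 5.06, 8.31, 12, 10.6, 5.82 and 12.3% in the same order, so that several of these counts lie near or below them. Mkrn3, from the same region as Snrpn, was called higher in 5 of the 6 groups. It averaged 7.03 ± 2.54 CPM in PO and 38.4 ± 17.1 CPM in 2i+LIF HP (log2 difference 2.38, SE 0.44, adjusted p 0.000958 in edgeR). In LIF HP the 8 calls were 3 higher and 5 lower.

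**Figure D4:**
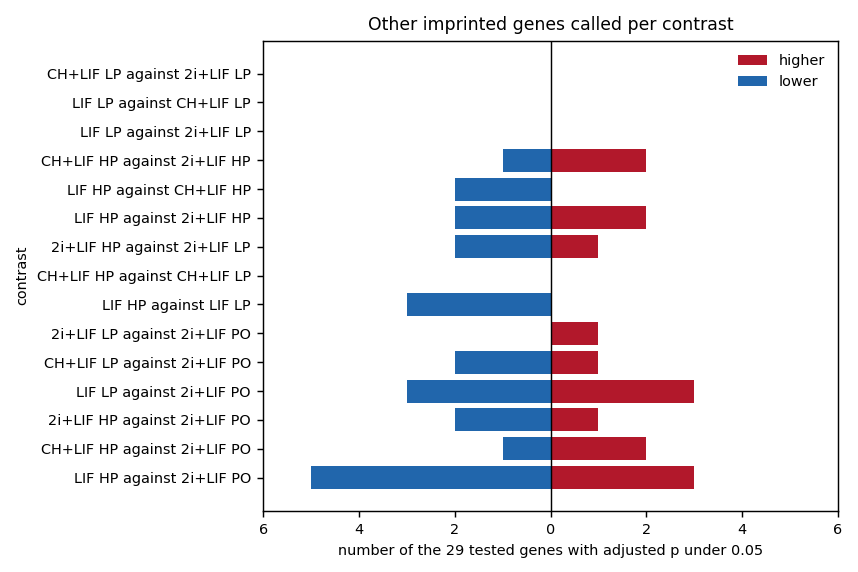
Bar chart of how many of the 29 tested other imprinted genes were called by edgeR (adjusted p under 0.05) in each of the 15 contrasts (rows), to the right those higher and to the left those lower in the first-named group. No bar appears for media at LP, and LIF HP against 2i+LIF PO has the longest, with 3 higher and 5 lower.

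Genes that keep or remove methylation at imprints were given from a list of 19, of which 17 were tested. In LIF HP against LIF LP, 0 rose and 3 fell: Dnmt3l, a cofactor of the de novo methyltransferases (1.06 ± 1.35 against 111 ± 24.5 CPM; log2 difference -6.37, SE 0.79, adjusted p 1.30e-05 in edgeR), Zfp57 (23.2 ± 4.95 against 70.9 ± 19.5 CPM; -1.59, SE 0.46, 0.0294), and Tet1, an enzyme that oxidises methylcytosine (-2.21, SE 0.58, 0.0168). These are 3 of 17, beside 9.96% of all genes, and the list's median was -0.64 beside 0.01 over all genes. In 2i+LIF HP against 2i+LIF LP, where 3.67% of all genes were called, Uhrf2 and Dppa3 rose and Dnmt3l (6.96 ± 2.86 against 99.8 ± 71.9 CPM, edgeR adjusted p 0.000831) and Tet2 fell. Against PO, where it had 122 ± 70.0 CPM, Zfp57 was called lower in CH+LIF LP, 2i+LIF HP and LIF HP (log2 fold changes -1.99, -2.29 and -2.37; edgeR adjusted p 0.0087, 0.0025 and 0.0025). Dppa3, which protects methylated DNA from oxidation in the egg, had 84.4 ± 53.8 CPM in 2i+LIF HP, against 2.71 ± 2.13 CPM in PO (log2 difference 5.05, SE 0.90, adjusted p 0.000947 in edgeR). Trim28 was called in no contrast, with means of 340 to 577 CPM. The part of these genes in the members' levels was not tested.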

How the data were processed

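For each library the authors deposited a table of raw counts, whole numbers keyed by Ensembl ID. Per the submitters' processing notes, bcl2fastq, STAR 2.6.0a, HTSeq and the build mm10 were used; annotation, strand setting and filters are not given in the sources used here. The 5 closing entries of each table, 38.0 to 52.6% of its entries and mostly alignments that were not unique, stayed out of library sizes and tests. Without a known strand setting, reads of members that overlap other genes cannot be assigned with certainty. GENCODE M21 on GRCm38 gave symbols and positions and held 31011 of the 31053 IDs.

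All 21 libraries entered 1 quasi-likelihood fit in edgeR 4.0.16 (R 4.3.3) with a coefficient per group, TMM scaling, the filterByExpr filter and 14 residual degrees of freedom. All tests were two-sided, and p-values were adjusted by Benjamini-Hochberg over all genes within each of 15 contrasts, 3 interactions and a joint test, at a threshold of 0.05. Standard errors are the absolute log2 fold change divided by the square root of F. Ratios, bounds and 95% intervals from pooled counts used library totals without TMM, exact binomial limits and a floor of 3 counts over a group. Named were all members and, per list and contrast, at most 4 called genes with the largest changes, and per tested member the 2 genes of highest Pearson's r of log2 CPM (prior count 2) with at least 5 CPM in 1 group. A few further genes, Trim28, Pou5f1, Nanog in 2i+LIF HP, Fn1, Col5a1, Col1a1, Thy1, Col3a1, Dcn, Postn, Snurf, Sp5, Axin2 and Dusp6, were named after their values were seen. The members and lists were chosen with earlier results of these data known.

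Alternatives were DESeq2 1.42.0, DESeq2 size factors, limma 3.58.1 voom with quality weights, no filter, thinned counts, only the groups compared, a replicate block, omission of the 2 libraries that stood apart (replicate 1 of 2i+LIF PO and of 2i+LIF LP), no mitochondrial genes or Gm42418, and each library left out in turn. After seeing the data, 3 omissions were added: 2i+LIF LP replicates 2 and 3, the libraries labelled LIF HP, and those labelled CH+LIF LP. Same-numbered deviations from group means correlated at r over 0.1 for every replicate number in 1 of 15 contrasts. This was 2i+LIF LP compared with PO, with r values 0.397, 0.345 and 0.179. Replicate 1 stood apart in both of these groups, so the r values do not show that samples were paired. Replicates differed by more than sampling noise (lowest chi-square per degree of freedom 4.82). Tested on simulated counts in LIF HP against LIF LP, the fit to 10314 genes recovered 92.5% of 200 genes changed 8-fold. The changed genes had an overall mean of at least 5 CPM, and all groups but LIF HP were given equal levels. The rate therefore does not cover members with lower counts, such as Nnat with a mean of 3.25 CPM.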

Additional observations from a re-analysis of the deposited data

How the results depend on the processing

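Of 520 values that alternatives gave for the 16 called log2 fold changes, 491 stayed past the threshold, 29 did not and 0 reversed; 10 of the 16 were never lost. None of the 3 omissions of libraries whose markers went against their labels ended a call that could still be fitted; without 2i+LIF LP replicates 2 and 3, that group is replicate 1 alone, a library that itself stood apart. The joint count of 4 members was 4 to 5 in every alternative. The count for media at LP, 1, was 0 with only the groups compared and 2 with thinned counts or without 2i+LIF LP replicates 2 and 3. For media at HP the count of 0 became 1 with thinned counts, 2 with DESeq2, with no filter, with only the groups compared or without 2i+LIF LP replicates 2 and 3, and 3 with limma-voom or without the 2 libraries that stood apart. The count for HP against LP, 2, became 0 without the libraries labelled LIF HP, since both calls need them. For interactions it was 1 with no filter and 2 without 2i+LIF LP replicates 2 and 3. Leaving out each library in turn gave 4 to 4 members in the joint test, 1 to 1 for media at LP, 0 to 2 for media at HP (2 without 2i+LIF LP replicate 1 or 2i+LIF PO replicate 1, 1 without LIF HP replicate 3), 1 to 2 for HP against LP (1 without LIF HP replicate 1 or 3), 3 to 4 against 2i+LIF PO (3 without PO replicate 2 or CH+LIF HP replicate 2) and 0 to 0 for interactions. Beyond fewer samples, the cause of these shifts was not tested. With the replicate block the counts were 4 in the joint test, 1 for media at LP, 0 for media at HP, 2 for HP against LP, 4 against PO and 0 for interactions, so it changed no count. Low counts limit H19, Igf2, Sgce, Nnat and, in PO, Mest.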
